A study of Mus musculus with 12 samples.

Results

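The hnRNP and RBM genes encode RNA-binding proteins of the nucleus, and their mRNA levels were described here in the liver of mice given selenium-enriched Aspergillus oryzae. Members were all gene names beginning with Hnrnp, or with Rbm and a digit, that had a mean level of at least 1 TPM (a measure of transcript abundance normalised for transcript length and for the library) over the 12 liver libraries. The cold-inducible gene Rbm3 and names of pseudogenes were left out by the rule. This gave 49 members among 57010 genes, of which 20 were in the hnRNP family and 29 in the RBM family. A further 11 RBM genes had mean levels under 1 TPM. The nearest of them was Rbm12, at 0.748 TPM, and the nearest member above the limit was Rbm12b2, at 1.12 TPM.

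The mice were male wild-type C57BL/6J animals, 6 weeks old at assignment after 7 days of acclimatization, and all ate a normal diet. The control group is labelled as untreated. The selenium group received the selenium-enriched fungus A. oryzae A02 in saline by daily gavage, at 0.5 mg selenium per kg. The labels give 10 mice per group, and 6 liver libraries per group were analysed, each labelled as a separate sample. The duration is given as 8 weeks in the study's design text and as 14 weeks in the sample descriptions. No group received the fungus without added selenium, saline alone is not named for the control, and the actions of fungus, selenium and gavage cannot be told apart. The samples carry the labels liver and hepatocyte. Marker genes of hepatocytes summed to 30659 to 51485 TPM in control libraries and 33292 to 51030 TPM in selenium libraries, and no marker of any list was at 0 in all libraries. In bulk tissue, fewer cells of a type and less RNA per cell cannot be told apart.

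Heterogeneous nuclear ribonucleoproteins (hnRNPs) coat nascent transcripts, decide together with the SR proteins which splice sites are used, and take part in polyadenylation, export and decay of mRNA. Many bind short motifs through RNA recognition motifs or KH domains. The RBM genes share a name given for an RNA-binding motif rather than a common ancestor, and include splicing regulators, stable subunits of the spliceosome and of the exon junction complex, adaptors of nuclear RNA decay and of m6A methylation, and proteins of ribosome synthesis. In liver, such proteins help to set which isoforms of metabolic genes are made, and RBM47 is a cofactor of the editing of apolipoprotein B mRNA.

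Several members are close copies of each other, which bears on how reads can be assigned, so the sequences of the pairs compared further on are shown first. Hnrnph1 lies on chromosome 11 (chr11:50376990-50386528, plus strand) and Hnrnph2 on the X chromosome (chrX:134601179-134607060, plus strand), both on GRCm38. Their aligned coding sequences were identical at 81.0% of positions, and the longest identical run was 34 bases. The most similar stretch of 120 bases, coding positions 271 to 390 in both genes in the GENCODE M21 transcripts, holds 9 differences, which are in capitals.
Hnrnph1: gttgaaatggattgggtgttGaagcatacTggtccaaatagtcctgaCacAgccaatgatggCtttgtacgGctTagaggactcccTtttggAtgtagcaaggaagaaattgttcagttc
Hnrnph2: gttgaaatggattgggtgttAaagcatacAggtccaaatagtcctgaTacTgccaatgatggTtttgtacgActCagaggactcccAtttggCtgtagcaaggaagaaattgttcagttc
A read longer than that run therefore meets at least 1 differing base within the aligned coding part. Other pairs are closer. Rbm4 (chr19:4784293-4793901, minus strand) and Rbm4b (chr19:4756497-4767065, plus strand) were identical at 85.5% of aligned coding positions, with a run of 425 identical bases. Their first 120 coding bases, shown once because they do not differ, read as follows.
Rbm4 and Rbm4b: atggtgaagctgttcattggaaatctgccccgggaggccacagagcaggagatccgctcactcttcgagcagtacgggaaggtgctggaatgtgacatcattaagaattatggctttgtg
Rbm12b1 and Rbm12b2, neighbours on chromosome 4, were identical at 97.8% of aligned coding positions, with a run of 1455 identical bases. Rbm15 and Rbm15b were identical at 56.2%, with no identical run longer than 14 bases. In all, 11 members, 5 hnRNP and 6 RBM genes, shared at least 20% of their 50-base words with the transcripts of other genes. These were mostly pseudogenes or overlapping gene models, and the levels of the 11 members depend on how reads were divided. Hnrnph2 lay under that limit, with 18.2% shared with 1 other gene, and Hnrnph1 had 0.385%. The level of Hnrnph2, and so its ratio to Hnrnph1, depends on that division too.

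The promoters of Hnrnph1 and Hnrnph2 are shown because the levels of these copies stood in a different ratio in the groups. The windows run from 250 bases before to 50 bases after the first RefSeq start of each gene (GRCm38.p6) and are written 5′ to 3′ along the gene, with matches of the motifs TGACGT and CACGTG, on either strand, in capitals. Hnrnph1 has 4 further RefSeq starts downstream of this one.
Hnrnph1, chr11:50376740-50377039, plus strand: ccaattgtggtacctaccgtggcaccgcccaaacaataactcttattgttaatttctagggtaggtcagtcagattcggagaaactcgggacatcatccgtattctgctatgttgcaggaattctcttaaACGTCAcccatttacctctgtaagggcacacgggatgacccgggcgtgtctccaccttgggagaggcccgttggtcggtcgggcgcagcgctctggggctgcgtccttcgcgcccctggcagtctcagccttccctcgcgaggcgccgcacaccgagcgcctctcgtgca
Hnrnph2, chrX:134600929-134601228, plus strand: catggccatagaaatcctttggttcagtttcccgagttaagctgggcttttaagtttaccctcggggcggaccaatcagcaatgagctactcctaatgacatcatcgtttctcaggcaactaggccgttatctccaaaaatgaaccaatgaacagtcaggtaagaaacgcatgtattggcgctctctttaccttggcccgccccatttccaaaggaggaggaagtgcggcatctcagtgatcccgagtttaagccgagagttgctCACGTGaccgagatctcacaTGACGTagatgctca
Both windows hold a TGACGT match, and only that of Hnrnph2 holds CACGTG. The windows at the 4 further starts of Hnrnph1 hold neither motif. Promoter windows were found for 42 of the 49 members. On either strand, TGACGT was present for 5 of 18 hnRNP genes, 5 of 24 RBM genes and 8.37% of all 27025 genes with a window. The E-box CACGTG was present for 5 of the 18, 3 of the 24 and 8.09% of all genes. The ETS-type motif CCGGAAG was present for 2 of the 18, 5 of the 24 and 9.93% of all genes. A gene was counted if any of its windows held the motif, and some genes have several windows. Per window, TGACGT was present in 6 of 27 hnRNP windows, 6 of 29 RBM windows and 7.51% of all 32851. CACGTG was present in 5 of the 27, 3 of the 29 and 7.15%, and CCGGAAG in 4, 5 and 8.86%. These are matches of letters within windows of fixed length, counted without a test.

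The hnRNP genes were the more abundant family. Their TPM summed to between 651 and 763 in control libraries and between 544 and 698 in selenium libraries, and those of the RBM genes to between 169 and 208 and between 138 and 195. Hnrnpa2b1, a nuclear protein of pre-mRNA processing and RNA transport, was the most abundant member, with control levels from 141 to 163 TPM and a median of 154. It was followed within its family by Hnrnpk, a C-rich sequence binder with KH domains (control median 77.4 TPM), Hnrnpf (69.0 TPM), Hnrnpab (60.5 TPM) and Hnrnpa3 (49.1 TPM). The Hnrnpk and Hnrnpf ranges overlapped within controls (73.1 to 91.3 TPM and 58.9 to 82.8 TPM), so their order is not separated beyond the spread. The lowest member of the family was Hnrnpll, at a control median of 5.46 TPM. The RBM family began lower. Rbm39, a U2AF-like splicing factor, had a control median of 25.1 TPM (16.8 to 26.9). Rbm7, the RNA-binding subunit of the nuclear exosome targeting complex, had 20.2 TPM (17.8 to 24.7), and the spliceosomal protein gene Rbm17 had 17.1 TPM (13.4 to 21.1). Rbm8a, which encodes the exon junction core protein Y14, had 14.8 TPM (12.3 to 25.9), and Rbm42 had 11.5 TPM (9.49 to 13.3). The ranges of neighbours in this order overlapped.

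**Figure D1:**
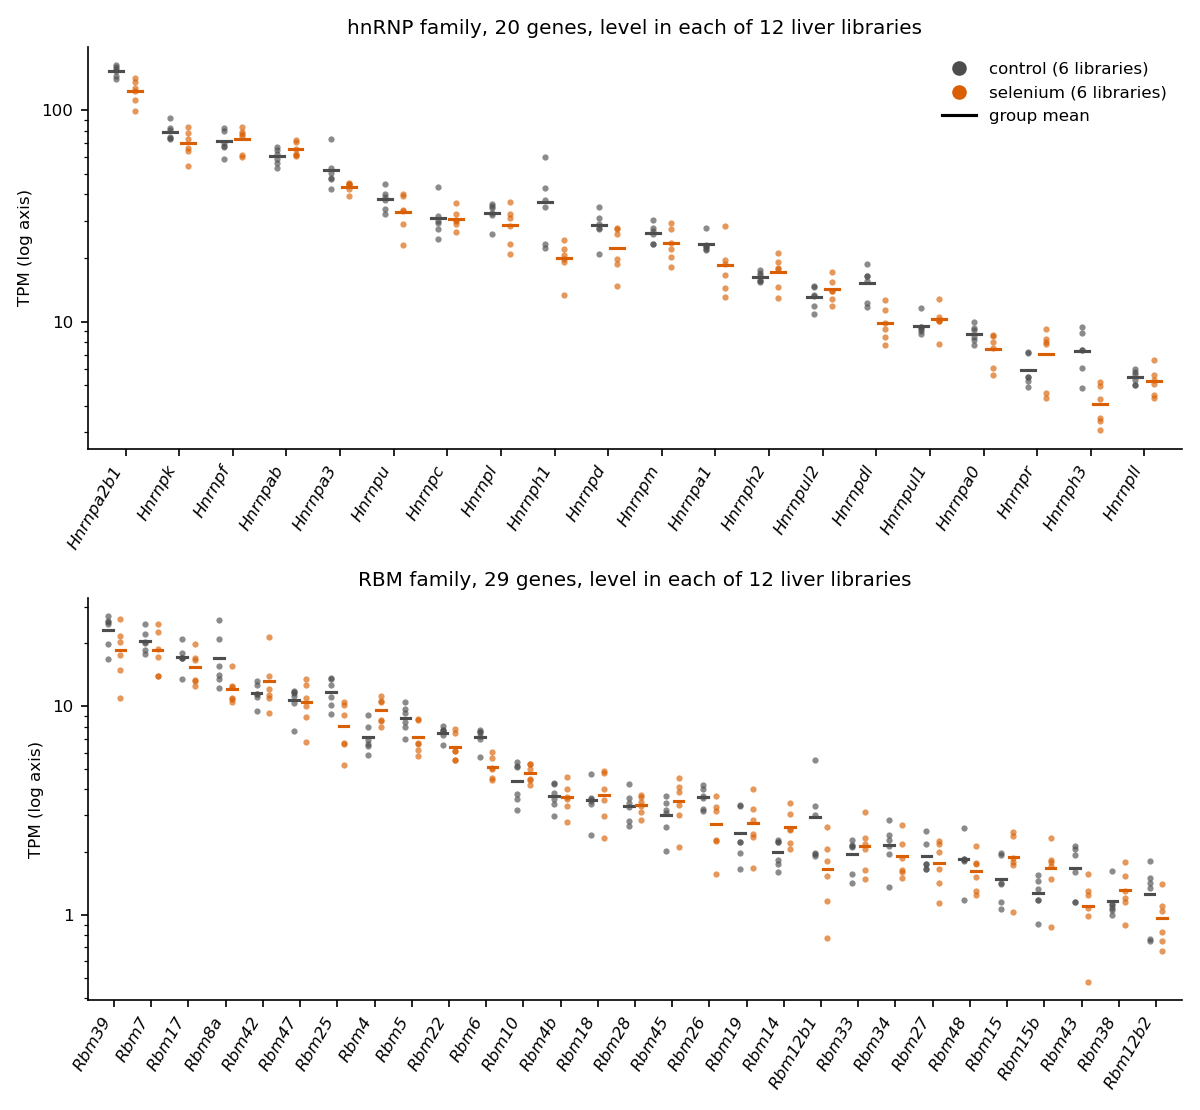
Level of every member in every library, in TPM on a log axis, with controls in grey, selenium in orange and a horizontal bar at each group mean. The hnRNP genes reach 163 TPM (Hnrnpa2b1) and most RBM genes lie under 20 TPM; the dots of the groups overlap for every member.

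The design asks whether members differ between selenium-treated and control liver. It was tested with limma on log2(TPM + 1) over the 9980 genes that had at least 1 TPM in at least 6 libraries, with Benjamini-Hochberg adjustment over all of them; log2 changes below are selenium minus control on that scale, which understates changes of low genes. All 49 members passed the filter. None of the 20 hnRNP and none of the 29 RBM genes passed an adjusted p of 0.05 in either direction, where over all tested genes 0.0200% passed as higher and 0.311% as lower. At an unadjusted p under 0.05, 6 hnRNP genes were lower and 0 higher, and 7 RBM genes were lower and 2 higher, beside 11.4% of all tested genes lower and 7.01% higher. The lower hnRNP genes were Hnrnph3, Hnrnpdl, Hnrnph1, Hnrnpa2b1, Hnrnpa1 and Hnrnpd. The median log2 change was -0.19 over the hnRNP genes, -0.08 over the RBM genes and -0.03 over all tested genes. Values below 0 were found for 14 of 20 hnRNP genes, 17 of 29 RBM genes and 54.6% of all tested genes. No member's groups were free of overlap, while over all tested genes 0.160% lay wholly above and 1.47% wholly below control in the selenium group.

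**Figure D2:**
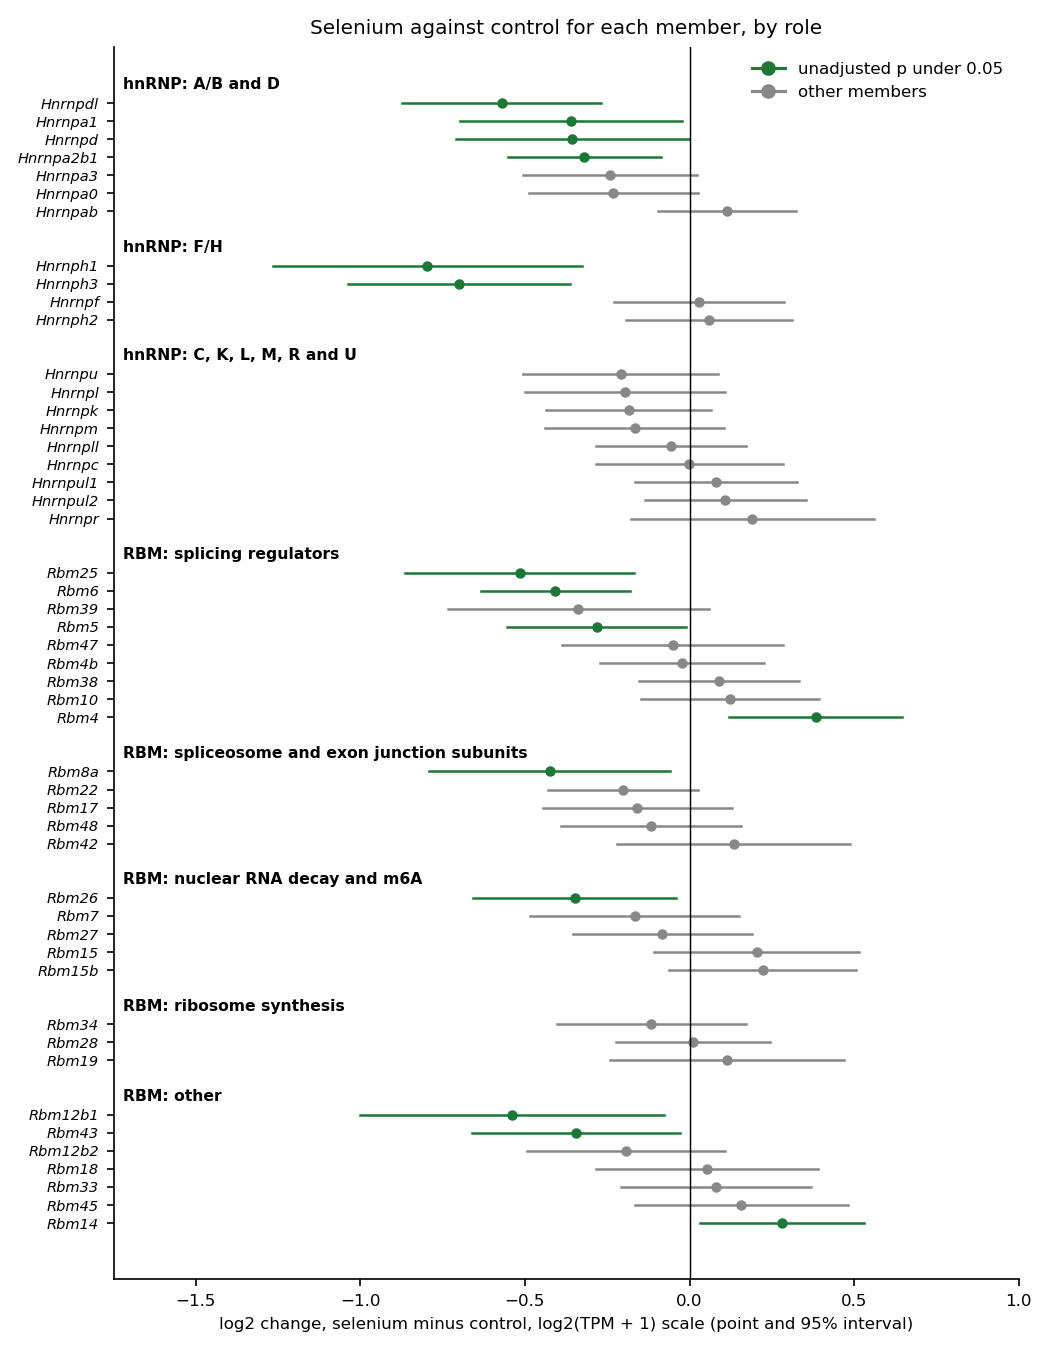
Log2 change of each member, selenium minus control, with its 95% interval from the limma fit, grouped by the role of the protein; green marks an unadjusted p under 0.05. Values run from -0.80 (Hnrnph1) to 0.38 (Rbm4), and the green members of the hnRNP family all belong to the A/B and D or the F/H groups.

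The A/B and D group has 7 genes, which are splicing repressors and binders of AU-rich mRNA. Of these, 4 were lower at the unadjusted threshold and 6 had a change below 0, beside 11.4% and 54.6% of all tested genes. Hnrnpdl, a relative of the mRNA decay factor AUF1, ranged from 11.8 to 18.8 TPM in controls (median 16.0) and from 7.79 to 12.7 TPM in the selenium group (median 9.60). All 6 selenium libraries lay below the control median, but the ranges overlapped. Its log2 change was -0.57 ± 0.14 (SE), with an adjusted p of 0.0778 from limma. Hnrnpa2b1 ranged from 98.8 to 142 TPM in the selenium group (median 125), so that its highest selenium library exceeded the lowest control library only slightly. The log2 change of Hnrnpa2b1 was -0.32 ± 0.11 (SE, adjusted p = 0.153). For Hnrnpd, the gene of AUF1 itself, control libraries ranged from 20.96 to 34.7 TPM (median 28.5) and selenium libraries from 14.7 to 27.7 TPM (median 22.9). Its log2 change was -0.36 ± 0.17 (SE, adjusted p = 0.268). Hnrnpa1, a classical repressor of splicing, was tightly grouped in controls, where 5 libraries lay near the median of 22.8 TPM and control 5 stood apart at 27.7 TPM. In the selenium group it spread from 13.03 to 28.5 TPM (median 17.7), and the highest library of all was a selenium library. Its log2 change was -0.36 ± 0.16 (SE, adjusted p = 0.241). Of the 50-base words of the Hnrnpa1 transcript, 46.4% occur in transcripts of other genes, so these values depend on how reads were divided.

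Hnrnpa3 had a log2 change of -0.24 (95% interval -0.51 to 0.02), with control levels from 42.4 to 73.2 TPM and selenium levels from 39.3 to 45.1 TPM. Nearly all of its sequence is shared with the processed pseudogene Gm5641 (chr3:54481438-54482925, GRCm38), which held 87.8% of the 50-base words of the Hnrnpa3 transcript. Gm5641 itself was listed at 40.1 ± 4.51 TPM in controls and 35.0 ± 8.82 TPM in the selenium group (mean ± SD, 6 libraries each). The sum of both genes was 92.5 ± 14.8 TPM and 78.5 ± 10.2 TPM, a log2 change of -0.23 (exact two-sided permutation test over 924 labellings, p = 0.0714, 0.107 after adjustment over the 3 sums tested). How reads were divided between gene and pseudogene cannot be seen from TPM. Hnrnpab, which binds both RNA and single-stranded DNA, had a change of 0.11 (95% interval -0.10 to 0.32), with 60.6 to 72.2 TPM in the selenium group against 53.6 to 66.9 TPM in controls.

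The F/H group binds runs of G near splice sites and polyadenylation sites. Its 4 members divided into a pair with low unadjusted p and a pair near 0. Hnrnph1 ranged widely in controls, from 22.25 to 60.01 TPM (median 36.3), and lay between 13.4 and 24.4 TPM in the selenium group (median 20.3). Every selenium library was below the control median, and the spread between controls was the larger one (SD 13.9 against 3.71 TPM). The log2 change of Hnrnph1 was -0.80 ± 0.22 (SE), the most negative of the 49 members, with an adjusted p of 0.104. Hnrnph3, a smaller paralog, ranged from 4.88 to 9.43 TPM in controls (median 7.32) and from 3.07 to 5.17 TPM in the selenium group (median 3.92). Only a narrow overlap remained between its groups. The log2 change was -0.70 ± 0.16 (SE), and its adjusted p of 0.0671 was the smallest of all members. Hnrnph2, by contrast, held 15.4 to 17.6 TPM in controls and 13 to 21.03 TPM in the selenium group, a change of 0.06 (95% interval -0.19 to 0.31). Hnrnpf had medians of 69.0 and 76.3 TPM and a change of 0.03 (95% interval -0.23 to 0.29).

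To ask whether the copies differed from each other in their change, the log2 ratio of the pair was taken within each library. The 4 pairs were tested by exact two-sided permutation over all labellings, with adjustment over the 4 ratios; this test was added after the values had been seen. The ratio of Hnrnph1 to Hnrnph2 had a median of 1.04 in controls (0.50 to 1.76) and 0.08 in the selenium group (-0.11 to 0.64). In other words, Hnrnph1 was the more abundant copy in every control library, and both copies were nearly level in the typical selenium library. The difference was -0.86 (exact permutation p = 0.00649, adjusted p = 0.0216). The same test gave an adjusted p of 0.125 with the replicate number as a block and 0.114 in the 8 libraries with little Dbp. In both cases the unadjusted exact p, 0.0312 and 0.0286, was the smallest that so few labellings can give.

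Among the 9 genes of hnRNP C, K, L, M, R and U, none passed an unadjusted p of 0.05. Of all tested genes, 11.4% were lower and 7.01% higher there. Changes of the 9 ran from -0.21 (Hnrnpu, 23.1 to 40.2 TPM under selenium) to 0.19 (Hnrnpr). Hnrnpk had 54.5 to 82.9 TPM in the selenium group against 73.1 to 91.3 TPM in controls, a change of -0.19 (95% interval -0.44 to 0.07). Hnrnpc, which binds U-rich tracts, was at medians of 29.6 and 30.1 TPM.

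Of the 9 RBM splicing regulators, 3 were lower and 1 higher at the unadjusted threshold, beside 11.4% and 7.01% of all tested genes. Rbm6 and Rbm5, neighbouring genes on chromosome 9 whose proteins regulate splicing of apoptosis genes, were both among the lower ones. Rbm6 ranged from 5.70 to 7.66 TPM in controls (median 7.37) and from 4.43 to 6.02 TPM in the selenium group (median 5.03). The overlap came from control 3, whose 5.70 TPM stood apart from the other controls. Its log2 change was -0.41 ± 0.11 (SE, adjusted p = 0.0880). Rbm5 had control levels from 7.00 to 10.5 TPM (median 8.82) and selenium levels from 5.79 to 8.68 TPM (median 6.63), a change of -0.28 ± 0.13 (SE, adjusted p = 0.254). For Rbm25, a factor that associates with the U1 snRNP, controls ranged from 9.23 to 13.6 TPM (median 11.9) and selenium libraries from 5.23 to 10.5 TPM (median 7.87). Its change was -0.52 ± 0.16 (SE, adjusted p = 0.133). Rbm39 had a change of -0.34 with a 95% interval of -0.73 to 0.06.

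Rbm4, which promotes inclusion of alternative exons and also acts in translation, had the highest change of the 49 members. It ranged from 5.83 to 9.05 TPM in controls (median 6.74) and from 7.99 to 11.2 TPM in the selenium group (median 9.55). No selenium library was below the control median, and the ranges overlapped through the highest control library. The log2 change was 0.38 ± 0.12 (SE, adjusted p = 0.139). Rbm14, its neighbour and the gene of a paraspeckle protein and transcriptional coactivator, ranged from 1.60 to 2.29 TPM in controls (median 2.04) and from 2.06 to 3.45 TPM under selenium (median 2.56), a change of 0.28 ± 0.12 (SE, adjusted p = 0.220). Rbm4b was nearly level, at medians of 3.71 and 3.64 TPM (change -0.02, 95% interval -0.27 to 0.23). The log2 ratio of Rbm4 to Rbm4b was 0.77 in controls (median, 0.57 to 0.95) and 1.22 in the selenium group (0.78 to 1.499). The difference of 0.41 had an exact permutation p of 0.0108 and an adjusted p of 0.0216. That call did not hold with the replicate block (adjusted p = 0.125), in the libraries with little Dbp (0.114) or without the 2 libraries that detected the fewest genes (0.0667). The difference was 0.41, 0.47 and 0.31 in these settings. With the block or with little Dbp, the labellings can give no exact p below 0.0312 and 0.0286. A ratio cannot pass adjustment over the 4 on its own there.

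The values of Rbm4 and Rbm14 depend on a further gene model. Gm21992 (chr19:4742913-4811612, minus strand, GRCm38) is annotated as protein coding, spans Rbm4 and overlaps Rbm14 on the same strand, while Rbm4b lies within its span on the other strand. Its transcripts held 66.5% of the 50-base words of the Rbm4 transcript, 19.4% of those of Rbm14 and 21.7% of those of Rbm4b. Gm21992 was listed at 4.56 to 9.45 TPM in controls (median 6.43) and at 0.99 to 4.57 TPM in the selenium group (median 3.13), a log2 change of -0.96 ± 0.23 (SE, adjusted p = 0.0724). It was thus lower where Rbm4 was higher. The sum of Rbm4 and Gm21992 was 13.7 ± 1.86 TPM in controls and 12.6 ± 2.18 TPM in the selenium group (mean ± SD, 6 libraries each), a log2 change of -0.12 (exact permutation p = 0.355, also 0.355 after adjustment over the 3 sums). A sum gives no level for Rbm4 itself, and the part of read assignment in its change was not tested. Gm21992, Gm5641 and the sums were chosen after values had been seen.

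**Figure D3:**
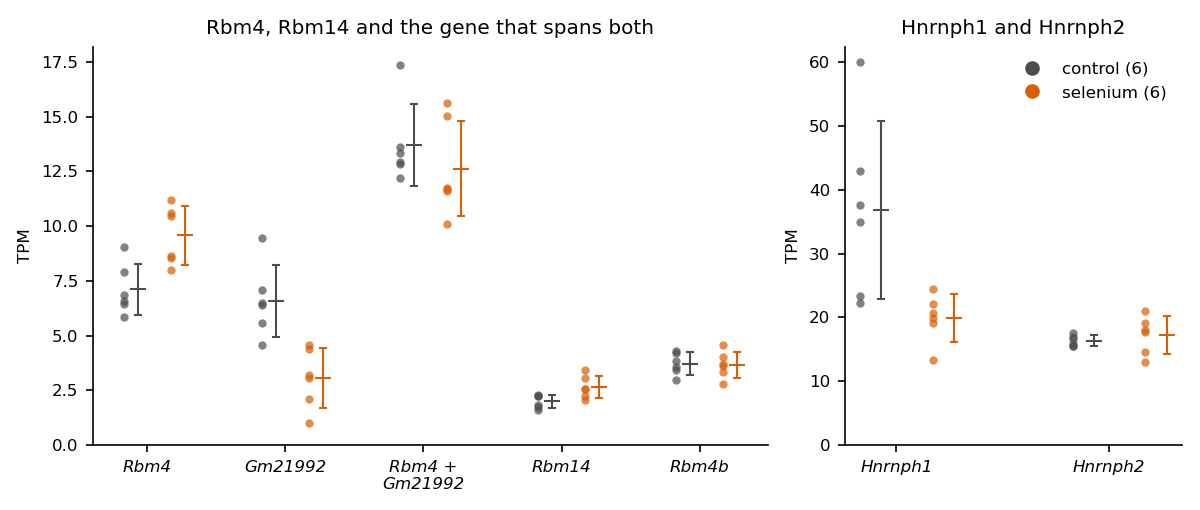
TPM per library of Rbm4, the overlapping gene Gm21992, their sum, Rbm14 and Rbm4b (left) and of Hnrnph1 and Hnrnph2 (right), with mean and SD beside the dots, controls in grey and selenium in orange. Rbm4 averages 7.12 and 9.58 TPM and Gm21992 6.59 and 3.06 TPM, while their sum averages 13.7 and 12.6 TPM; Hnrnph1 averages 36.8 and 19.9 TPM beside 16.3 and 17.2 TPM for Hnrnph2.

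Among the 5 subunits of the spliceosome and the exon junction complex, 1 was lower at the unadjusted threshold, beside 11.4% of all tested genes. Rbm8a ranged from 12.3 to 25.9 TPM in controls (median 14.8) and from 10.4 to 15.5 TPM in the selenium group (median 11.7), with a change of -0.42 ± 0.17 (SE, adjusted p = 0.210). Rbm17 had a change of -0.16 (95% interval -0.45 to 0.13). Rbm42 had a change of 0.13 (-0.22 to 0.49), set in part by selenium 2, whose 21.5 TPM was the highest of all libraries; without that library the change was -0.0091. The overlapping gene Gm21982 (chr7:30641001-30664937, minus strand, GRCm38) held 92.3% of the 50-base words of Rbm42, so the values of Rbm42 depend on how reads were divided.

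The group of nuclear RNA decay and m6A adaptors has 5 members. Of these, 1 was lower at the unadjusted threshold, beside 11.4% of all tested genes. Rbm26, which links the exosome to polyadenylated nuclear RNA, ranged from 3.16 to 4.19 TPM in controls (median 3.69) and from 1.58 to 3.72 TPM in the selenium group (median 2.73), a change of -0.35 ± 0.14 (SE, adjusted p = 0.218). Rbm7 had a change of -0.17 (95% interval -0.48 to 0.15). Rbm15 and Rbm15b, which bring the m6A methyltransferase to its RNA targets, had changes of 0.20 (-0.11 to 0.52) and 0.22 (-0.06 to 0.51). Their ratio differed between the groups by -0.02 on the log2 scale (exact permutation p = 0.773, adjusted p = 0.773).

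The 3 genes of ribosome synthesis, Rbm19, Rbm28 and Rbm34, had changes from -0.12 to 0.11, none of them past the unadjusted threshold. Of the 7 remaining RBM genes, 2 were lower and 1, Rbm14, was higher at that threshold, beside 11.4% and 7.01% of all tested genes. Rbm43 ranged from 1.15 to 2.13 TPM in controls (median 1.76) and from 0.48 to 1.57 TPM in the selenium group (median 1.16), a change of -0.35 ± 0.15 (SE, adjusted p = 0.234). Rbm12b1 had control levels from 1.92 to 5.54 TPM (median 2.50) and selenium levels from 0.78 to 2.64 TPM (median 1.68), a change of -0.54 ± 0.22 (SE, adjusted p = 0.207). Its near-copy Rbm12b2 had a change of -0.19 (95% interval -0.49 to 0.11). Since 63.1% of the 50-base words of Rbm12b1 occur in Rbm12b2, each of these values is uncertain, and the summed TPM of both was taken too. The sum was 4.22 ± 1.75 TPM in controls and 2.64 ± 0.913 TPM in the selenium group (mean ± SD), a change of -0.50 (exact permutation p = 0.0584, 0.107 over the 3 sums). The ratio of both differed by -0.35 (exact permutation p = 0.0455, adjusted p = 0.0606).

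Other RNA-processing genes were read from the same fit by 6 lists with 141 matched genes. Their counts stand beside the same background, 11.4% of all tested genes lower and 7.01% higher at the unadjusted threshold. The SR proteins, which act at many exons where hnRNPs repress, had 1 of 12 tested genes lower at the adjusted threshold and 7 lower at the unadjusted one, with a median change of -0.40. That gene was Srsf5. It ranged from 82.5 to 124 TPM in controls and from 35.0 to 52.6 TPM in the selenium group, without overlap, and fell by 1.17 on the log2 scale (limma, SE 0.13, adjusted p = 0.00331). By the exact permutation test per gene, neither Srsf5 nor any other gene passed adjustment (smallest adjusted p = 0.133). That test can give no p below 0.00216, so a gene can pass only where many others reach that value too. Srsf11 had a change of -0.91 (adjusted p = 0.0702). Of 39 other splicing regulators, 6 were lower and 2 higher at the unadjusted threshold, with a median of -0.04; the smallest p-values were those of Ptbp2, a polypyrimidine tract binder (-0.48, adjusted p = 0.0721, groups without overlap), and Rbmx, also called hnRNP G (-0.42, adjusted p = 0.147). Of 51 core spliceosome genes, 7 were lower and 6 higher, with a median of 0.07, led by Prpf39 (-0.67, adjusted p = 0.0733) and Prpf38b (-0.55, adjusted p = 0.0778). Of 18 exon junction and nonsense-mediated decay genes, 4 were lower, with a median of 0.02, led by Magohb (-0.83, adjusted p = 0.0880) and Pnn (-0.74, adjusted p = 0.1001). Of the 6 m6A writer genes, Wtap (-0.35, adjusted p = 0.163) and Zc3h13 (-0.35, adjusted p = 0.239) were lower at the unadjusted threshold. Of 10 arginine methyltransferase and nuclear import genes, Prmt5 (0.43, adjusted p = 0.151), whose groups did not overlap, and Prmt7 (0.33, adjusted p = 0.142) were higher at that threshold.

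The members also differed in base composition. The 13 members lower at the unadjusted threshold had a median transcript GC content between 42.3% and 46.7%, and the 2 higher ones, Rbm4 and Rbm14, had 51.5% and 56.2%. The 34 other members spanned 40.9% to 61.5%, and 9 of them lay within the range of the lower ones, among them Hnrnpr, with 44.0% and a change of 0.19. Across genes, which are not independent replicates and share the same libraries, Pearson's r between GC content and log2 change was 0.33 over 20 hnRNP genes, 0.65 over 29 RBM genes and 0.19 over all 9844 tested genes with a value. Spearman's rho was 0.30, 0.72 and 0.20. After each library had been corrected for GC content, 6 hnRNP genes were lower and 2 higher, and 7 RBM genes lower and 2 higher, at the unadjusted threshold, beside 10.0% and 11.8% of the genes fitted. Of these 17 members, 13 were also past the threshold without the correction. The 2 higher hnRNP genes, Hnrnph2 and Hnrnpr, were not. The part of GC content in the members' values was not tested further.

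**Figure D4:**
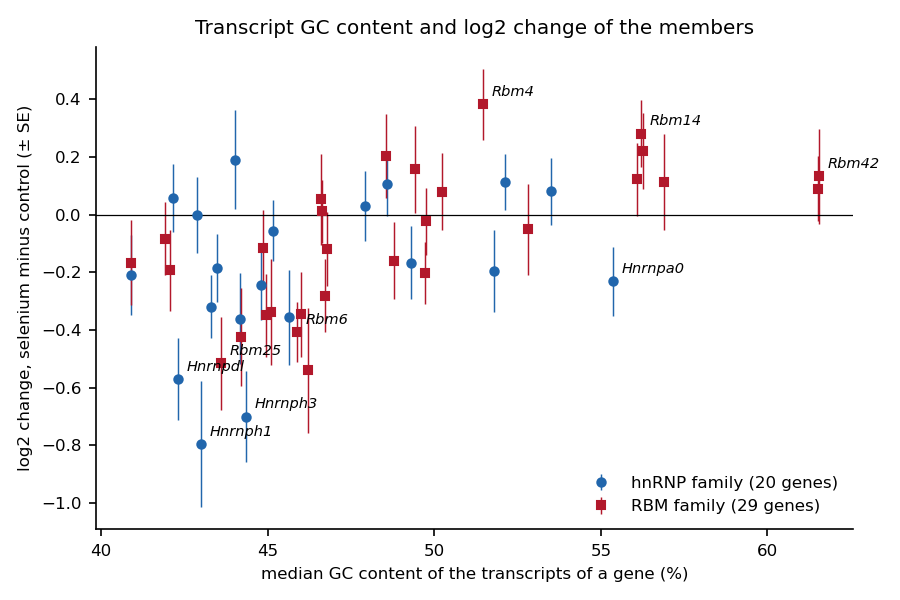
Log2 change (selenium minus control, with SE) of each member against the median GC content of its transcripts, hnRNP genes as blue circles and RBM genes as red squares. The members past the unadjusted threshold downwards lie between 42.3% and 46.7% GC, while Rbm4 and Rbm14 lie at 51.5% and 56.2%.

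A pair of selenium libraries held many of the lowest values. Selenium 2 or selenium 5 held the lowest value of 14 of the 20 hnRNP and 17 of the 29 RBM genes. The same count was not made over all tested genes, so it is not shown to be particular to the families. These were also the libraries with the fewest genes at 1 TPM or more, 9422 and 9230 beside 9691 to 10533 in the others. Averaged over the family, the hnRNP genes lay at -0.27 and -0.30 (log2 deviation from the mean of 12 libraries) in these 2 libraries, and the RBM genes at -0.11 and -0.28. The median over all tested genes lay near 0 in selenium 2 and at -0.21 in selenium 5. Without both libraries, 3 hnRNP genes were lower (Hnrnph1, Hnrnph3 and Hnrnpdl) and 1 higher (Hnrnpr), and 3 RBM genes were lower (Rbm25, Rbm6 and Rbm8a) and 5 higher (Rbm4, Rbm14, Rbm15, Rbm15b and Rbm45). The background was then 8.79% lower and 13.1% higher. Spread within groups, taken as the SD of TPM divided by the group mean, was larger under selenium for 15 of 20 hnRNP and 22 of 29 RBM genes. The same held for 65.5% of all tested genes. This measure also rises where the mean is lower.

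**Figure D5:**
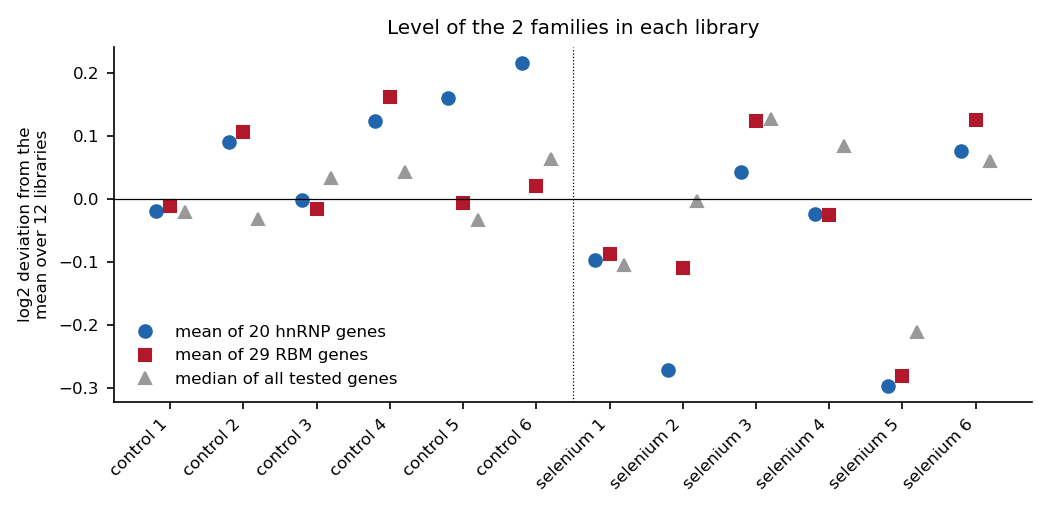
Mean log2 deviation of the 20 hnRNP genes (blue) and the 29 RBM genes (red) from their mean over 12 libraries, and the median of all tested genes (grey), in each library, with a dotted line between the groups. The hnRNP genes are lowest in selenium 2 and selenium 5, at -0.27 and -0.30, and highest in control 6, at 0.22.

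Other measured differences between libraries stood beside these changes, and their part in them was not tested. Malat1, a nuclear noncoding RNA, was at 17.6 to 61.6 TPM in controls and 5.72 to 11.7 TPM in the selenium group. Mitochondrially encoded genes made up 13.3% to 22.8% of TPM in controls and 8.10% to 13.8% in the selenium group. The clock gene Dbp, whose level follows the hour of the day, was above 10 TPM in control 5, control 6, selenium 1 and selenium 5, and under 2 TPM in the others. In the 8 libraries with little Dbp, 4 hnRNP genes were lower (Hnrnph3, Hnrnph1, Hnrnpdl and Hnrnpa2b1), and 4 RBM genes lower and 3 higher, beside 7.27% lower and 14.1% higher overall. Summed markers of lymphocytes were at 0.49 to 2.97 TPM in all libraries. Those of stellate cells were at 46.5 to 65.5 TPM in controls and 18.2 to 72.0 TPM in the selenium group, those of Kupffer cells at 32.0 to 88.3 and 37.8 to 154 TPM, and those of sinusoidal endothelium at 23.1 to 49.5 and 25.1 to 45.6 TPM. Cholangiocyte markers were at 25.0 to 269 and 16.0 to 133 TPM, and erythroid markers at 242 to 2170 and 213 to 792 TPM.

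The scaling of libraries moved the split of higher and lower genes. With median-of-ratios scaling, 5 hnRNP genes were lower and 0 higher, and 5 RBM genes lower and 3 higher, where 7.74% and 15.4% of all genes were lower and higher. After quantile normalization the counts were 6 and 0 for hnRNP and 5 and 4 for RBM genes, beside 9.65% lower and 13.4% higher. When TPM was rescaled without mitochondrial genes, 9 hnRNP genes were lower and 0 higher, and 9 RBM genes lower and 1 higher, beside 17.5% and 3.65%. Under that scaling alone, of those run, members had an adjusted p under 0.05 from limma: Hnrnph3 (0.0356), Hnrnpdl (0.0415) and Rbm6 (0.0415), all lower. Over all 9965 genes fitted there, 184 were lower and 6 higher at that threshold, against 31 and 2 of 9980 in the main fit. The median change over all genes was -0.11 under that scaling. Hnrnph3, Hnrnpdl, Hnrnph1, Rbm6, Rbm25 and Rbm4 kept the sign of their change under every scaling. That was not particular to them: of the 49 members, 14 changed sign under at least 1 alternative of any kind.

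The authors' deposited table of their own comparison gives adjusted p-values under 0.05 for 2 hnRNP and 2 RBM genes. In that table Hnrnpdl has a log2 change of -0.52 (adjusted p = 0.00681) and Hnrnph1 of -0.60 (adjusted p = 0.0477), both lower under selenium. Also in the authors' deposited table, Rbm4 has 0.53 (adjusted p = 0.0115) and Rbm19 has 0.62 (adjusted p = 0.0419), both higher. All 13 members that were lower at the unadjusted threshold in the fit to TPM have a negative value there too, but of differing size: in the authors' deposited table Rbm6 has -0.16 (adjusted p = 0.565), Rbm8a has -0.03 (adjusted p = 0.921) and Hnrnph3 has -0.48 (adjusted p = 0.114). Rbm4b, nearly level in the fit to TPM, has -0.32 in the authors' deposited table (p = 0.0368, adjusted p = 0.183). Over the tested genes, 2.90% are lower and 6.97% higher at that threshold in the authors' deposited table. For 4 hnRNP and 2 RBM genes the sign in the authors' deposited table differs from that of the difference in mean TPM.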

How the data were processed

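Total RNA of mouse liver was sequenced in 12 Illumina libraries, per the labels' protocols. The values used are TPM per gene, deposited by the authors in 1 table of 57010 genes and again per library, with the same values. Submitters' processing notes name HISAT2 2.1.0, RSEM 1.2.8, DESeq2 and GRCm39, without their roles; no source used here gives the strandedness. TPM keeps no read depth, so depth is unknown and no counting interval can be given; every column summed to the same total. The authors' deposited table also holds log2 fold changes (control over selenium, turned here), p-values and adjusted p-values.

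The members and lists were chosen with earlier results of these data known. TPM was put on a log2(TPM + 1) scale and fitted with limma 3.58.1 (R 4.3.3) with an intensity trend, for genes with at least 1 TPM in at least 6 libraries, adjusting over all 9980 genes by Benjamini-Hochberg at 0.05; the fit was tested on simulated data. Single values were tested by exact two-sided permutation over 924 labellings, which can give no p below 0.00216. Gene spans and transcripts were those of GENCODE M21 (GRCm38) and promoters those of RefSeq (GRCm38.p6), both of another build than the deposited values, so no coordinate comes from the files. Shared sequence was measured in words of 50 bases of the transcript with the longest coding part. No protein sequence was used, and the planned protein features are not analysed here.

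Named were members past the adjusted threshold, at an unadjusted p under 0.05 or without overlap of the groups, the 5 most abundant of each family, those nearest 1 TPM, the 4 paralog pairs, and in each other list the genes past the adjusted threshold and the 2 of smallest p. Hnrnpu, Hnrnpr, Hnrnpc, Hnrnpll, Rbm19, Rbm28, Rbm34, Rbm45, Gm21992, Gm5641 and Gm21982 were named after their values had been seen. The labels do not say more than that libraries are separate samples, so p-values measure the spread between these samples. Alternatives were pseudocounts, filters, scalings, variance models, the replicate number as a block, permutation, only libraries with Dbp under 10 TPM, and leaving out each library; the GC correction (loess) and leaving out the 2 libraries with the fewest genes at 1 TPM were added after the data had been seen.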

Additional observations from a re-analysis of the deposited data

Results flagged for a closer look

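In 84 groups of 6 libraries, those of the named genes, the library farthest from the rest was compared with the range of its group; chance marks about 1 group in 20, and 5 were marked here. Control 5 had the highest control level of Hnrnpa3, at 73.17 TPM, with a gap to the next library of 0.653 of the group's range. The same library had the highest control level of Hnrnpa1, at 27.68 TPM, and the lowest control level of Prmt5, at 1.39 TPM. Control 3 had the lowest control level of Rbm6, at 5.70 TPM, and control 1 the lowest of Prpf38b, at 8.47 TPM. Of these libraries, control 5 also had the largest mitochondrial share of TPM, 22.8%, and Dbp at 15.7 TPM.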

How the results depend on the processing

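TPM alone sets the limits here: low genes vary with unknown read depth, and a TPM value falls when others rise. Counts at unadjusted p under 0.05 were 6 lower and 0 higher for hnRNP genes and 7 lower and 2 higher for RBM genes. Of all tested genes, 11.4% were lower and 7.01% higher. With a filter of 5 TPM, under which fewer were tested, the counts were 4 and 1 for RBM genes. Of all genes passing that filter, 9.81% were lower and 9.12% higher. Quantile normalization gave 4 RBM genes higher, beside 13.4% of all tested genes. Rescaling without mitochondrial genes gave 1 RBM gene higher, beside 3.65% of all genes. It gave 2 hnRNP and 1 RBM genes lower at the adjusted threshold, where 184 of all 9965 genes were lower. In libraries with little Dbp 4 RBM genes were lower, beside 7.27% of all tested genes. The GC correction gave 2 hnRNP genes higher, beside 11.8% of the genes fitted. Leaving out the 2 libraries with the fewest genes at 1 TPM gave 3 lower and 1 higher for hnRNP genes. For RBM genes it gave 3 lower and 5 higher, beside 8.79% and 13.1% of all tested genes. Leaving out 1 library at a time gave 4 to 7 lower hnRNP genes and 2 to 9 lower and 1 to 4 higher RBM genes, while 9.43% to 12.2% of all tested genes were lower and 4.39% to 11.6% higher. No member passed the adjusted threshold in these 12 fits. Without selenium 5, 2 RBM genes were lower and 4 higher, beside 9.43% and 11.6% of all tested genes. By exact permutation, no gene of all 9980 passed adjustment (smallest adjusted p 0.133), Srsf5 included. With no p below 0.00216 possible, a gene can pass there only where many others reach that value too. Median changes ran from -0.29 to -0.06 (hnRNP) and from -0.18 to -0.01 (RBM). The cause of these differences was not tested.

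Same-numbered libraries did not deviate together (correlations between -0.14 and 0.11 over genes), so the numbers were not taken as pairs. With the replicate number as a block, 5 hnRNP genes were lower and 0 higher and 4 RBM genes lower and 1 higher, beside 10.7% of all tested genes lower and 8.65% higher. The ratios Hnrnph1 to Hnrnph2 and Rbm4 to Rbm4b had adjusted p = 0.125 by exact permutation within pairs, which can give no unadjusted p below 0.0312.

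Under at least 1 alternative, 14 members had a change of opposite sign, 5 of them named by the rule; their main values lay between -0.20 and 0.13. Rbm4b was at 0.041 with median-of-ratios scaling, 0.026 after quantile normalization, 0.022 with little Dbp and 0.075 without the 2 libraries with the fewest genes. Rescaling without mitochondrial genes put Hnrnpf at -0.066 and Hnrnph2 at -0.034. The ratio Rbm15 to Rbm15b was at 0.024 after GC correction and at 0.022 without the 2 libraries. Rbm7 was at 0.00088 after GC correction and 0.011 without the 2 libraries, and Rbm42 at -0.0053 without them. With 1 library left out, the ranges of 8 members crossed 0. For the named ones they were -0.075 to 0.035 (Rbm4b), -0.022 to 0.081 (Hnrnpf) and -0.0091 to 0.22 (Rbm42), and for 1 ratio -0.053 to 0.014 (Rbm15 to Rbm15b).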
